A study of Homo sapiens with 6 samples.

Results

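DST, LPP, FRMD6, CORO1C, BASP1, PLEC, ZYX, PXN, TLN1 and FLNA encode proteins of cell adhesion sites and of the actin-rich cell cortex. The windows of these 10 genes held 84 of the 19108 regions listed for full-length ZNF469, and 0 of the 54 regions listed for the deletion construct. A window was the gene body in GENCODE with 20 kb on either side, and a region counted when it overlapped the window by at least 1 bp. The 10 genes were picked from 20007 protein-coding genes with their region counts known, so the counts and densities below describe the choice and carry no test.

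The regions came from CUT&RUN, which releases and sequences the DNA fragments under an antibody-bound protein, here with an antibody against ZNF469. The cells were LX-2, an immortalized human line of hepatic stellate cells, the liver cells that become contractile, matrix-producing myofibroblasts in fibrosis. A doxycycline-inducible piggyBac transgene supplied full-length ZNF469 in 1 group and dZF-ZNF469, which per the study's methods lacks most zinc fingers, in the other, and both groups received 1 ug/mL doxycycline for 24 h. Each group had 3 libraries, which the authors pooled into 1 region list, so the lists used here gave no value per library, no replicate SD and no test between the constructs. Each construct sat in its own selected line with its own clone name, so construct and line cannot be told apart. Region lists hold no expression values, and the stellate identity of the line was not checked here against marker genes.

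Adhesion sites couple the extracellular matrix to actin. Integrins grip the matrix outside the cell, talin (TLN1) binds their cytoplasmic tails and actin, paxillin (PXN) is a docking adaptor, and the LIM proteins zyxin (ZYX) and LPP gather at adhesions under tension. Filamin A (FLNA) crosslinks actin and links it to integrins, whereas the plakins dystonin (DST) and plectin (PLEC) tie intermediate filaments and other cytoskeletal polymers to junctions. At the cortex, CORO1C belongs to the coronins that regulate actin branching, FRMD6 is a FERM-domain protein placed upstream of Hippo signaling, and BASP1 is a myristoylated protein of the inner plasma membrane.

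Sequences at the summits are shown first, because AP-1, the FOS and JUN dimer that binds TGACTCA, had its site close to the summit in some of these regions. An AP-1 site, TGACTCA or its reverse complement TGAGTCA, lay with its centre within 10 bp of the summit in 8 regions, in DST, LPP, FRMD6 and BASP1. The stretches below are 61 bp centred on those summits, read from the plus strand of hg38. Capitals mark AP-1 sites and, in the DST stretch, also a TEAD motif (CATTCC, here as GGAATG).
DST chr6:56713504-56713564: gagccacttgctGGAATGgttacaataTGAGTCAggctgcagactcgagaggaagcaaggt
LPP chr3:188547243-188547303: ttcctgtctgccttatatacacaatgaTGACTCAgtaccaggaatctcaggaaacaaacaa
LPP chr3:188594250-188594310: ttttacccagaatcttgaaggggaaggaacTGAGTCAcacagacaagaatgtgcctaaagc
LPP chr3:188773060-188773120: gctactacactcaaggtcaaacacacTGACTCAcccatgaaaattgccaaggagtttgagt
FRMD6 chr14:51539738-51539798: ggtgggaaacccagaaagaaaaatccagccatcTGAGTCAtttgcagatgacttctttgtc
FRMD6 chr14:51581403-51581463: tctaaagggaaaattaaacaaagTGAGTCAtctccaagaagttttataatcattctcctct
FRMD6 chr14:51597558-51597618: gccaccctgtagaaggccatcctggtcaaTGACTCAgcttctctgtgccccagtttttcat
BASP1 chr5:17258603-17258663: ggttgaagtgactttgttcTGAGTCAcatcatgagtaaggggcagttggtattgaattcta

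The AP-1 site was centred exactly on the summit in the DST region and in the first of the LPP regions, at an offset of 0 bp. The other offsets were 3 and -1 bp in LPP, 6, -4 and 2 bp in FRMD6, and -8 bp in BASP1. These 8 were 26.7% of the 30 regions with an AP-1 site within 100 bp of the summit, with Wilson 95% limits of 14.2 and 44.4%. In the whole full-length list 891 of 6168 such regions had a site that close, which is 14.4%. The median distance between site and summit ran the other way, 48.5 bp in the 10 gene windows and 39 bp in the list.

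The 3 stretches that follow are 201 bp around the summits of the tallest BASP1 region, the tallest FRMD6 region and the single ZYX region, none of which had an AP-1 site within 100 bp. They are shown to set strong and promoter regions without the site beside those above. Capitals in the BASP1 stretch mark a RUNX motif (TGTGGT, here as ACCACA), and no searched motif fell in the other stretches.
BASP1 chr5:17238880-17239080: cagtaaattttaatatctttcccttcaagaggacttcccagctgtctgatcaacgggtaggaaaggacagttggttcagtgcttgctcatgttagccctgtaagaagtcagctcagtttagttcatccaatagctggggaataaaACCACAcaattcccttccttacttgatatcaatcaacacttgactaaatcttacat
FRMD6 chr14:51554396-51554596: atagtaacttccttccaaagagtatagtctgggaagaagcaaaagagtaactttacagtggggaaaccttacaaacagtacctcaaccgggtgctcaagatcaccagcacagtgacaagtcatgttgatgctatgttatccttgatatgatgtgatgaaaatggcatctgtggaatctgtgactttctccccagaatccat
ZYX chr7:143381048-143381248: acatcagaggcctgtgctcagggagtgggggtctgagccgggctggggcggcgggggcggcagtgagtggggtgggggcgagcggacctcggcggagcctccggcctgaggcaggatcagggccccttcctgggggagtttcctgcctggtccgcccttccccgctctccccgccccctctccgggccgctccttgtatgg

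The last pair of stretches, also of 201 bp, come from TLN1 intron 1 and FLNA intron 2. They are shown because each held a CArG box, the element bound by serum response factor, which acts on many actin-cytoskeleton genes. Capitals mark the CArG box and, in TLN1, a pair of overlapping TEAD motifs.
TLN1 chr9:35728176-35728376: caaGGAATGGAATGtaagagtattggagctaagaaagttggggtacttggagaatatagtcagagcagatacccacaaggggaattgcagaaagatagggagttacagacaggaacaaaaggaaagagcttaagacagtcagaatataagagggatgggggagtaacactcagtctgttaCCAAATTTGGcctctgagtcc
FLNA chrX:154369520-154369720: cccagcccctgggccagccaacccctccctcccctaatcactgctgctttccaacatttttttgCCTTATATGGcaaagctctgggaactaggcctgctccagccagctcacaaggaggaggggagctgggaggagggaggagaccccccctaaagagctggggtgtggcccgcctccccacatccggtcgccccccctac

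The region counts spread widely over the 10 genes. DST had 27 regions, LPP 17, FRMD6 12, BASP1 8, CORO1C 7, PXN 6, FLNA 3, TLN1 2, and PLEC and ZYX 1 each. Across all protein-coding genes 52.0% had at least 1 full-length region in the same kind of window and the median was 1, whereas the median of the 10 genes was 6.5. The 10 windows together spanned 2362 kb and held 3.56 regions per 100 kb, and all protein-coding windows held 0.851 per 100 kb. Without DST the density was 3.12 per 100 kb, without LPP 4.23, and without DST, LPP, FRMD6 and BASP1 it was 3.89 over 514.5 kb.

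**Figure D1:**
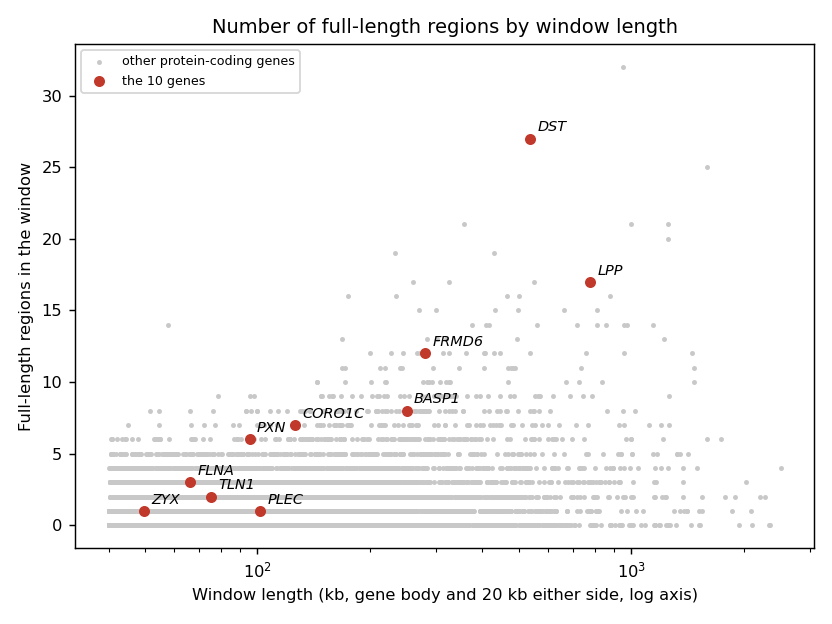
Number of full-length regions in the window of each protein-coding gene (vertical axis) against the window length in kb (horizontal log axis), with grey points for other genes and red points for the 10 genes. DST with 27 regions lies near the top of the plot, whereas PLEC and ZYX with 1 region each lie among the bulk of genes of their length.

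Length did not order the genes in the same way as density. Over whole windows, flanks included, PXN was the densest with 6.29 regions per 100 kb, followed by CORO1C with 5.54 and DST with 5.03. FLNA had 4.54 per 100 kb, FRMD6 4.26, BASP1 3.18, TLN1 2.66, LPP 2.19, ZYX 2.01 and PLEC 0.984. LPP, the longest gene at 737.4 kb, was therefore among the 3 least dense, and 4257 protein-coding genes were as dense or denser. For PXN that number was 472 and for PLEC 8539. The gene body itself held 4 of the 6 PXN regions, 4 of 7 in CORO1C, 24 of 27 in DST and 2 of 3 in FLNA. The order by gene body alone was not computed and can differ. At least as many regions as in DST were counted for 2 genes, DST included, and at least as many as in LPP for 13.

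The heights were recovered as pileups, the number of pooled fragments over the summit, with exact Poisson 95% limits that cover counting error only. The median pileup of the 84 regions was 30.5 fragments (95% limits of the median 28 to 36), and that of the whole list was 20. The pileup lay above the list median in 72 of the 84 regions. The local background, the caller's expected fragments at the summit, had a median of 4.04 in the 10 windows (3.24 to 4.45) and 1.82 in the list, and 75 of 84 regions lay above the list median. The fold enrichment, (pileup + 1)/(background + 1), had a median of 7.05 (6.23 to 7.39) against 7.36 in the list, and 33 of the 84 exceeded the list median. The regions were thus tall in fragments over a raised background, and their fold enrichment was near that of the list.

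**Figure D2:**
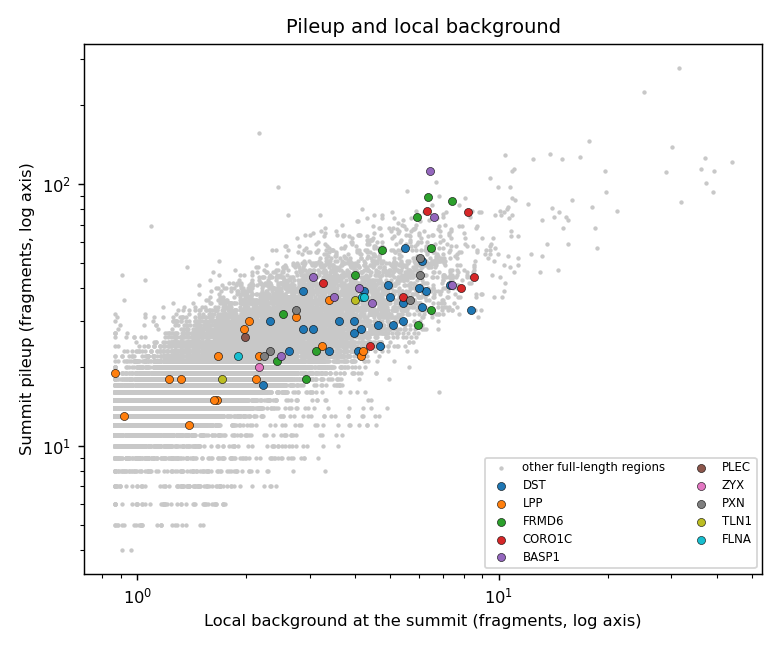
Summit pileup (vertical log axis, fragments) against local background (horizontal log axis, fragments) for every full-length region, with regions of the 10 windows coloured by gene. Most DST, FRMD6, CORO1C and BASP1 points lie to the right of the list median background of 1.82 fragments, and LPP points reach down to the lowest background of 0.865.

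Outside ZYX, the background was higher at the genes than in the regions around them. In DST the median background was 4.64, and 1.82 in the 21 other regions within 1 Mb. The corresponding medians were 6.34 and 2.37 for CORO1C, 5.33 and 2.35 for FRMD6, 4.28 and 3.32 for BASP1, 4.18 and 1.42 for FLNA and 1.97 and 1.16 for LPP. In PXN the medians were 4.202 and 1.58. TLN1 had 2.86 and 1.51, from 2 regions, of which the 1 at the TPM2 start had 1.71. PLEC had 1.99 in its single region and a median of 1.08 around it. For ZYX, with 2.17 in its single region and 2.21 around it, the values were alike. Regions also lay close together, since 55 of 84 (65.5%) had another region within 10 kb, against 36.1% of the list. The genes were picked with their region counts known, so this share describes the choice, as the density does. Those 55 had a median background of 4.39 and the remaining regions 2.74, and the list showed the same order with 2.45 and 1.60. The background was read as a count of nearby fragments from the same pool, which could not be checked. If so, neighbouring regions can enter it, and their part in these values was not tested.

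**Figure D3:**
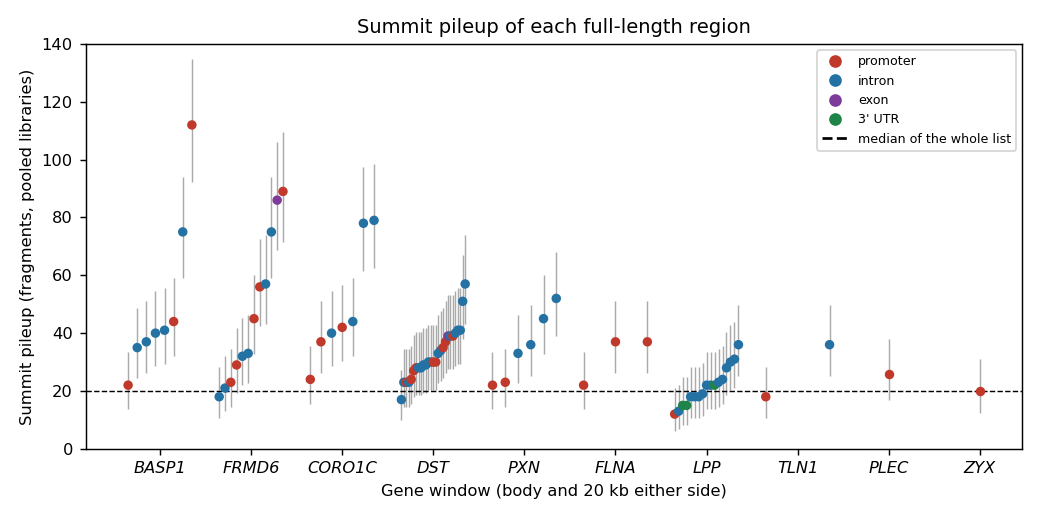
Summit pileup (vertical axis, fragments in the pooled libraries) of each region, ordered by height within each gene window, with bars for exact Poisson 95% limits and a dashed line at the list median of 20. BASP1, FRMD6 and CORO1C hold the 7 tallest points, whereas many LPP points lie at or below the line.

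By annotation class the regions were mostly intronic. The intron class took 50 of the 84 (59.5%, Wilson 95% limits 48.8 to 69.4%), against 35.8% of the list and 39.1% of the 13982 regions in any protein-coding window. The promoter class, within 3 kb of any annotated transcription start, took 29 (34.5%, 25.2 to 45.2%), against 39.3% of the list. The promoter share of regions in any protein-coding window was 48.1%. The Wilson limits treat regions as independent draws, although DST and LPP held 27 and 17 of the 84, so they give no test. Leaving LPP out gave a promoter share of 41.8%, above that of the list, and leaving DST out gave 35.1%. None of the 84 regions was distal intergenic (upper Wilson limit 4.37%), against 8.96% of regions in any protein-coding window and 21.6% of the list. The 10 windows had a median length of 114 kb, against 67.5 kb over all protein-coding genes. With flanks of 20 kb in both, gene body makes up more of a longer window, and the list also holds regions outside any gene window. The class shares thus depend on the choice of genes, and their differences were not tested. Exons took 2 regions and 3' UTRs 3. Of the 29 promoter regions, 17 lay at a start of the window's own gene, 5 at the start of another protein-coding gene and 7 only at a noncoding or pseudogene start. An own-promoter region was present in 7 of the 10 genes, all but BASP1, PXN and TLN1, against 27.5% of all protein-coding genes. Of the 10407 protein-coding genes with any region in their window, 5502 had one. In the gene lists compared below it was 18 of 27 adhesion genes, 13 of 24 cortex and linker genes, 6 of 13 integrin genes and 11 of 17 actomyosin genes. The share is therefore not particular to the 10 genes, which were chosen with their regions known. The number of annotated starts differed from 3 in BASP1 to 39 in DST, which widens what counts as a promoter in DST. A total of 13 regions lay in intron 1 of the canonical transcript, 4 in PXN, 4 in BASP1, 3 in CORO1C and 1 each in TLN1 and FRMD6.

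**Figure D4:**
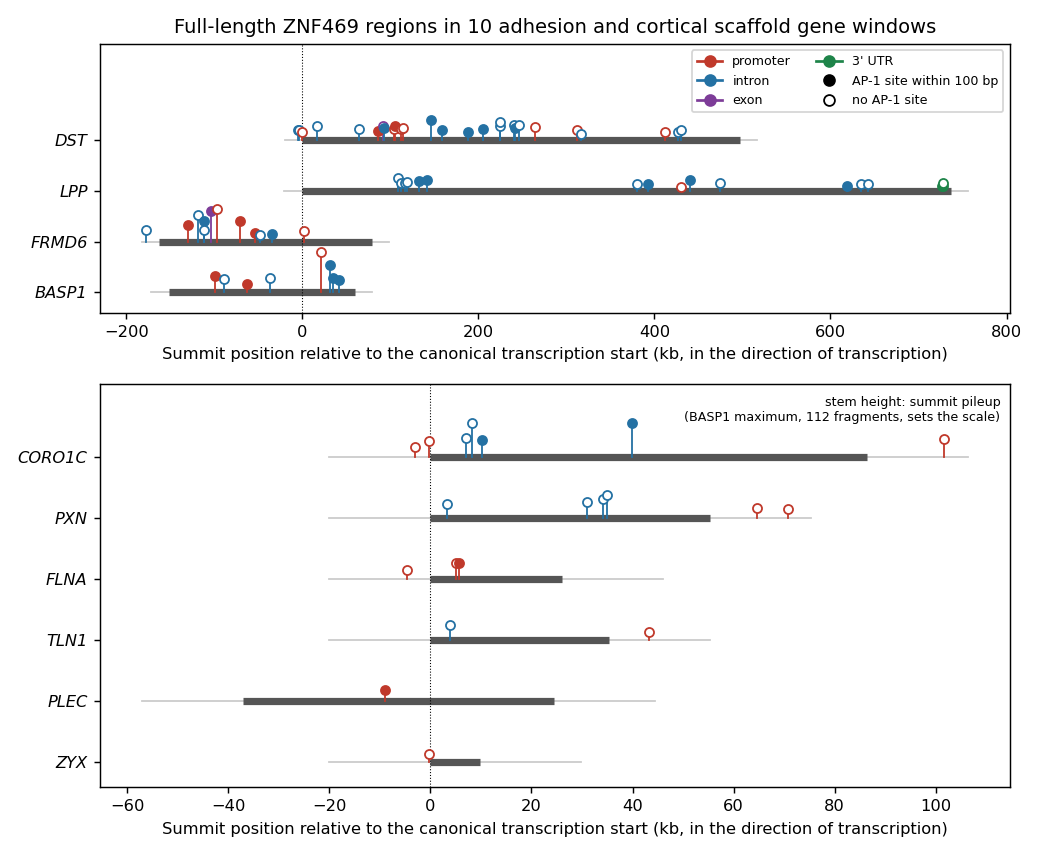
Position of each region summit relative to the canonical transcription start (horizontal axis, kb in the direction of transcription) for the 10 windows, with thick bars for gene bodies, thin lines for flanks, stem height for pileup, colour for annotation class and filled heads for an AP-1 site within 100 bp. FRMD6 regions lie mainly before the canonical start, DST regions run along the gene, and PXN, TLN1 and CORO1C have regions soon after the start.

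Among the plakins, DST (chr6:56457987-56954830, minus strand) carried regions along most of its length. Its 27 pileups ran from 17 over a median of 30 to 57 fragments, and its backgrounds from 2.23 to 8.36. The tallest, at chr6:56808745-56809548 in intron 4, reached 57 fragments (43.2 to 73.9) on a local background of 5.51, with an AP-1 site 54 bp from the summit. The own-promoter regions numbered 8. The region at chr6:56955177-56955575, 415 bp before the canonical start, is shared with the start of BEND6 and had 24 fragments. Others sat at alternative DST starts, with the summit 85 bp before a start at chr6:56542731-56543072 (23 fragments) and 11 bp after a start at chr6:56642867-56643533 (28 fragments). A group of 4 lay in intron 4 around further starts, at chr6:56851058-56851334, chr6:56849781-56850238, chr6:56842601-56842952 and chr6:56840963-56841270, with 30, 39, 30 and 35 fragments, and the latter pair also adjoins the antisense gene DST-AS1. The last, at chr6:56690473-56691070 in intron 9, had 37 fragments 2654 bp from the nearest start. The plakin DST has several isoforms with different first exons, and its 8 own-promoter regions were spread over several annotated starts. Most of the 27 DST regions lay more than 3 kb from every DST start. With 39 annotated starts in a gene of 496.8 kb, nearness to a start was not tested. The region with AP-1 at the summit, in intron 5, had 33 fragments over 8.36, the highest background in DST and the lowest fold enrichment of all 84, 3.63. That intron held 5 DST regions of 33 to 51 fragments, at 224 to 245.8 kb from the canonical start, and their backgrounds ran from 4.92 to 8.36. A separate pair upstream, 3.86 and 5.30 kb before the canonical start and inside BEND6, had 29 fragments each.

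PLEC (chr8:143915153-143976734, minus strand) had a single region, at chr8:143948433-143948736, where 26 fragments (17.0 to 38.1) stood over 1.99, a fold enrichment of 9.04. It lay 1970 bp before the nearest PLEC start, 8.92 kb before the canonical start, and held an AP-1 site 52 bp from the summit. Both plakins therefore had a region within 3 kb of their own start, but PLEC had none further along the gene.

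Of the LIM proteins, LPP (chr3:188153284-188890671, plus strand) held the lowest pileups. Its 17 pileups ran from 12 over a median of 22 to 36 fragments, over backgrounds of 0.865 to 4.21, and 13 regions were intronic. The tallest, chr3:188262972-188263476 in intron 2, had 36 fragments (25.2 to 49.8) over 3.38. Its only promoter region was at an internal start at chr3:188584048-188584491, with the lowest pileup of all 84, 12 fragments, so the canonical LPP start carried none. A cluster of 3 regions lay in the last exon, in the 3' UTR, with 15, 15 and 22 fragments. ZYX (chr7:143381295-143391111, plus strand) had 1 region, chr7:143380938-143381280, 197 bp before the canonical start, with 20 fragments (12.2 to 30.9) over 2.17. Its 201 bp at the summit were 73.6% G or C, against a median of 42.8% in the 84 regions.

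Talin and paxillin both carried regions inside intron 1. PXN (chr12:120210439-120265771, minus strand) had 4 there, with 33, 36, 45 and 52 fragments from the start inward, and the tallest at chr12:120230470-120230954 had limits of 38.8 to 68.2. The other two PXN regions, of 23 and 22 fragments, lay downstream of the gene at the starts of RPLP0 and GCN1, which encode a ribosomal protein and a ribosome-associated regulator. None of the 6 PXN regions had an AP-1 site within 100 bp of the summit. TLN1 (chr9:35696948-35732195, minus strand) had 36 fragments (25.2 to 49.8) at chr9:35727880-35728516, 3.92 kb inside the gene. Its other region, of 18 fragments, lay at the start of TPM2, a tropomyosin gene downstream.

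FLNA (chrX:154348524-154374634, minus strand) had a pair of regions in canonical intron 2, at chrX:154369378-154369857 and chrX:154368745-154369214. Each had 37 fragments, over backgrounds of 4.18 and 4.22, and both lay within 3 kb of an alternative FLNA start. Within 100 bp of the summit the first held a CArG box and the second an AP-1 site, and the record of the first also held an AP-1 site further out. Its remaining region, of 22 fragments, was at the promoter of EMD, the neighbouring gene for the nuclear envelope protein emerin. A CArG box lay within 100 bp of the summit in 4 of the 84 regions (4.76%, Wilson limits 1.87 to 11.6%), in LPP, CORO1C, TLN1 and FLNA, and in 1.70% of the list.

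The cortical genes BASP1, FRMD6 and CORO1C held the tallest regions. In BASP1 (chr5:17065598-17276843, plus strand), the 8 pileups ran from 22 over a median of 40.5 to 112 fragments, over backgrounds of 2.49 to 7.44. The tallest of the 84, at chr5:17238478-17239141 in intron 1, had 112 fragments (92.2 to 135) over 6.45, a fold enrichment of 15.2, and ranked 15 by pileup and 53 by fold enrichment in the list. It lay 21.3 kb inside the canonical start and was classed as promoter only through a small RNA pseudogene. A further 3 regions followed in the same intron with 75, 41 and 35 fragments, and these 3 had an AP-1 site within 100 bp of the summit. The tallest had none that close, but its record held 1 further out. The remaining 4 lay before the canonical start, within a longer annotated BASP1 gene body, so a window built on the canonical transcript kept 4 of 8.

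FRMD6 (chr14:51489100-51730727, plus strand) had its regions mainly in the upstream portion of the gene. Its 12 pileups ran from 18 over a median of 39 to 89 fragments, over backgrounds of 2.43 to 7.41. Pileups of 75, 86 and 89 were found at chr14:51532778-51533779, chr14:51547161-51547721 and chr14:51554209-51555036. The tallest (limits 71.5 to 110) lay 164 bp before an annotated FRMD6 start, and 97.4 kb before the canonical start. All regions but the one of 29 fragments at 1.42 kb after the canonical start lay before that start, so the canonical transcript with its flanks kept 1 of 12. AP-1 sites were within 100 bp of the summit in 6 of the 12.

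CORO1C (chr12:108645109-108731526, minus strand) had 7 regions of 24 to 79 fragments with a median of 42. At its own start the regions had 37 fragments 311 bp before the canonical start and 24 fragments 3.09 kb before it. Inside intron 1 they had 44, 78 and 40, over the backgrounds 8.54, 8.20 and 7.87, the highest in the gene. The tallest, chr12:108691518-108692110 in intron 2, had 79 fragments (62.6 to 98.5) over 6.34 and a fold enrichment of 10.9, and it held AP-1, RUNX and CArG motifs within 100 bp of its summit. The last, of 42 fragments, was at the promoter of SELPLG, a selectin ligand gene downstream.

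AP-1 sites were within 100 bp of the summit in 30 of 84 regions (35.7%, Wilson limits 26.3 to 46.4%), against 32.3% of the list, which lies inside those limits. Among the upper 25% of the list by fold enrichment the shares were further apart, 57.9% of the 19 regions left in the 10 windows and 34.8% of the list. That was the widest gap among the alternatives. The shares were 42.4 and 34.9% in the upper 50% by fold, and 38.89 and 32.55% in the upper 25% by pileup. Within 50 bp of the summit the order was the other way, 17.9 and 19.3%. By gene the counts were 9 in DST, 6 in LPP, 6 in FRMD6, 5 in BASP1, 2 in CORO1C, 1 each in PLEC and FLNA and 0 in PXN, TLN1 and ZYX. In introns the share was 19 of 50 (38.0%), against 38.3% of the list's intronic regions, and in promoters 9 of 29 (31.0%), against 22.2%. Of the 17 own-promoter regions 3 had a site. Regions with and without AP-1 had median pileups of 32 and 30 fragments. TEAD motifs were found in 22.6% of the 84 and 21.1% of the list, and RUNX motifs in 16.7 and 17.5%. A motif match describes letters in the window and does not show that the factor was bound.

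The dZF list had no region in any of the 10 windows, and 0.125% of all protein-coding genes had at least 1 dZF region. The nearest lay 250.2 kb from BASP1, and for FLNA and DST 1656 and 3462 kb away. No dZF region lay on the chromosomes of CORO1C, PXN and TLN1. The dZF list appears shallower if the lowest background is read as depth. Its lowest background was 0.625 fragments and that of the full-length list 0.865, a ratio of 1.38. When the full-length pileups and backgrounds were divided by this ratio and pileups rounded down to whole fragments, 77 of the 84 regions (91.7%) kept a −log10 p above 7.62, the lowest in the dZF list, against 85.3% of the list. Of the 7 below it, 5 were in LPP, 1 in DST and 1 in FRMD6. Rounding to the nearest fragment, the other way of obtaining whole numbers, gave 82 of 84 and 89.5% of the list. The IDR filter of the study was not repeated on the scaled values.

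Other genes of the same structures, grouped in 4 lists by function, had lower median counts, pooled densities and median pileups. Single genes in them were denser than PXN, the densest of the 10 with 6.29 per 100 kb, namely ANXA2 with 9.40, ITGA3 with 8.05, ITGB3 with 8.01, TES with 6.80 and MYL6 with 6.64. Of all protein-coding genes 52.0% had at least 1 full-length region, with a median of 1 per gene and 0.851 per 100 kb. Their median window was 67.5 kb. It was 101.4 kb in the adhesion list, 136.5 in cortex and linker, 130.9 in integrin and 75.98 in actomyosin. A longer window has more room for a region, and the shares were not tested. In the adhesion list 26 of 27 genes had a region, all but SRC. The median there was 2 per gene and the density 2.00 per 100 kb. The most were in TLN2 with 13, LIMD1 with 8, PDLIM5 with 7, and TES and the talin-binding vinculin (VCL) with 6 each. In the cortex and linker list 18 of 24 had a region, with a median of 3 and 1.89 per 100 kb. FRMD4A had 14 there, the plakin MACF1, the annexin ANXA2 and the spectrin SPTBN1 9 each, and the alpha-actinin ACTN4 7. The 6 genes at 0 were the BASP1 relatives MARCKS, MARCKSL1 and GAP43, the coronin CORO1A, EPPK1 and EZR. The coronins CORO2B and CORO1B had 3 and 1. Integrin genes had regions in 11 of 13, with 8 in ITGB3, 6 each in ITGA2 and ITGA3 and 4 each in ITGA1, ITGB1 and ITGB5, at 2.33 per 100 kb. In the actomyosin list 12 of 17 had a region, led by MYLK, the myosin light chain kinase, with 12, followed by MYH9 with 7, CALD1 with 6, TPM1 with 4 and MYL6 with 3, and ACTB, ACTG1, ROCK1, ROCK2 and TAGLN had 0. The TPM2 promoter region counts in that list and in the TLN1 window. Median pileups of the 4 lists were 20 to 24 fragments and median backgrounds 1.93 to 2.17, against 30.5 and 4.04 in the 10 genes, which had been chosen with their regions known. None of the 4 lists held a dZF region.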

How the data were processed

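CUT&RUN with an anti-ZNF469 antibody was performed in 6 LX-2 libraries, 3 per construct. Per the labels, the authors used bcl2fastq, Bowtie2 2.3.4.3, MACS2 2.2.5, R 4.2.1 and deepTools 3.5.1, and the build is hg38. The libraries of each group were pooled into 1 IDR-filtered list before deposition. The deposited lists give a fold ratio, a −log10 p-value and a summit per record. Other deposited columns were not used except the score, which was used only to describe the records. Whether a control library was used is not given in the sources used here.

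Pileup and background were solved from fold and −log10 p (tolerance 0.001). All 84 records had 1 solution, and on 1500 simulated records 100% were recovered. Backgrounds of the full-length list were multiples of 0.0103 fragments (15299 tested, tolerance 0.02 steps). They were read as the pool's own coverage. The even steps do not decide this, since scaled counts from a control library would also be evenly spaced. Total reads per library were not analysed here. Genes and classes came from GENCODE v44. Python 3.11.15, pandas 2.3.3, scipy 1.17.1 and pysam 0.24.0 were used.

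The genes, gene lists and motifs were chosen with earlier results of these data known. The text names all 10 genes, their tallest region and the regions at their own starts, neighbouring protein-coding genes with a region at their start, and the 5 genes with most regions in each list. ITGB5 is added because it ties for the last place. Other regions, listed genes at 0 and the coronins CORO1B and CORO2B were named after their values were seen. No test was run, since the pooled lists used here hold no value per library. Alternatives covered the flank, the records used, overlap, gene model, neighbouring starts, leaving genes out, the promoter window, the motif and the searched stretch.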

Additional observations from a re-analysis of the deposited data

How the results depend on the processing

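No paired analysis was possible because the libraries of a group were merged into 1 list, and for the same reason no library could be left out. Of 89 alternatives to 8 pooled values, 72 were labelled as stayed, 17 as moved and 0 as reversed. The tally does not measure robustness, since some outcomes were fixed. Stricter settings could not raise a count of 0, and counts could only fall when fewer records were kept. The labels also do not follow the side of the list. Without LPP the promoter share was 41.8%, above the 39.3% of the list, and was labelled as stayed. Medians and shares counted as moved outside their 95% limits, and counts and densities when they changed by more than 1.5 times. The count of 0 dZF regions stayed at 0 with a flank of 50 kb. That outcome was fixed as well, since the dZF region nearest to any of the 10 genes lay 250.2 kb away, from BASP1. Keeping the upper 50% of the list by fold left 33 regions, 1.40 per 100 kb, with a median pileup of 39 and a median fold of 9.09. The upper 25% by fold left 19 regions, 0.805 per 100 kb, with a median pileup of 44, a median fold of 10.1 and an AP-1 share of 57.9%, against 34.8% of the list so reduced. The upper 25% by pileup left 54 regions, 2.29 per 100 kb, with a median pileup of 37 and a median background of 5.04. The AP-1 share stayed within its limits there (38.89%, against 32.55% of the list so reduced) and in the upper 50% by fold (42.4%, against 34.9%). A promoter window of 1 kb gave a promoter share of 17.9%, against 28.9% of the list. The AP-1 share was 47.6% with TGANTCA (42.0% of the list), 17.9% within 50 bp (19.3%) and 47.6% over whole records (44.1%). Of 80 alternatives to single gene counts, 27 moved, among them ZYX, which fell to 0 without flanks, CORO1C, which fell to 4, and TLN1, which fell to 1. Rounding scaled pileups down gave 77 of 84. It was adopted after the nearest-fragment value of 82 had been seen, in part because it was expected to lie nearer an earlier value for the whole list, so neither count is preferred by the data. Pooled depth and the lack of values per library limit all comparisons, and counting limits do not cover differences between libraries.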
